A study of Spodoptera frugiperda with 12 samples.

Results

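The loci described here are stretches of the *Spodoptera frugiperda* genome that carried N6-methyladenosine (m6A) peaks in embryos at 24 h after oviposition and none at 2 h. Peaks of the 6 deposited m6A lists on 1 strand were joined where fewer than 2000 bases separated them, which gave 17120 loci, of which 16666 were on chromosomes. The 24 h-only loci are the 1226 chromosomal loci (7.36% of the 16666) with a peak in all 3 lists of 24 h embryos and in no list of 2 h embryos. They were chosen by these peak calls at both times, so the share is given as a description and nothing is read from it. Loci with a peak in all 6 lists, 8654 on chromosomes, are called shared loci and serve as the comparison.

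The study compared whole embryos of the fall armyworm, a noctuid moth, at 24 h and at 2 h after the eggs were laid, with 3 m6A capture samples per time. All embryos came from a laboratory colony whose larvae ate an artificial diet and whose adults drank sugar water, and many embryos went into each collection. Each capture sample has its own peak list, in which a peak is a stretch called as enriched and carries the authors' score. The 24 h lists held 56679 to 58161 peaks and the 2 h lists 51157 to 55116, so the 24 h lists were the longer ones. With every list shortened to its strongest 51157 peaks, 1094 loci met the rule, and 1017 of the 1226 loci (83%) overlapped one of them. The read depth behind a peak is unknown, and input libraries are not analysed here. Absence of 2 h peaks therefore includes loci whose RNA may have been undetectable at 2 h. More methylation per transcript and more transcript cannot be told apart. The labels do not state whether samples of 1 time are separate egg collections. The p-values therefore speak only for these samples, whose differences may be technical. Most of the exact sign flips below compare sets of loci, or parts of a locus, within the same 3 lists. Their result is the smallest possible whenever the 3 lists agree in sign, whatever the size of the difference. The exact permutations of 3 lists against 3 compare the times.

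m6A is an internal base modification of messenger RNA. It is written by a methyltransferase complex built around METTL3 and METTL14 and bound by proteins with a YTH domain, and it bears on splicing, export, translation and decay of the RNA. In insects the earliest embryo lives on RNA laid down by the mother, and transcription from the embryo's own genome takes over later. In zebrafish, an m6A reader helps to clear maternal RNA during that handover. Which genes the loci below belong to was not analysed here, because no matching genome or gene annotation was used. Each locus is therefore named by its sequence, strand and position, counted from 1 on the sequences of the deposited lists, whose build the sources used here do not name. For the same reason no bases are printed, and exonic and intronic positions are not distinguished.

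The edge of the rule was close for many loci. Beside the 1226 loci, 846 had a peak in 2 of the 24 h lists and none at 2 h, and 337 had peaks in every 24 h list but also in 1 list of 2 h. The 846 loci were smaller, with a median span of 750 bases against 2412 bases for the 24 h-only loci. The 337 loci were alike in size to the 24 h-only loci, with a median span of 2630 bases and 3.04 peaks per 24 h list on average, against 3.18. In 265 of these 337 loci (78.6%) the only 2 h evidence was a single peak, and their strongest 2 h peak had a median score percentile of 15.4 within its list. A weak peak in a single list thus separated many of these loci from the 24 h-only ones.

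The loci richest in peaks at 24 h differed in how much of their span was covered in all 3 lists. On the plus strand of NC_049716.1, the stretch 12721465 to 12739085 had 21, 26 and 23 peaks in the 3 lists of 24 h. Its peaks merged into 41 regions, of which 10 were found in all 3 lists and together covered 2658 bases. Of its 70 peaks, 19 lay in the last 10% of its span, at the 3' end. On the minus strand of NC_049725.1, the stretch 7642577 to 7647638 was more compact, with 25, 20 and 20 peaks within 5062 bases. Of its 26 merged regions 13 were found in all 3 lists, covering 2462 bases, so in this locus the lists placed peaks at many of the same positions. Also on the plus strand of NC_049716.1, 11514039 to 11525595 had 22, 21 and 18 peaks, but 5 of its 40 merged regions were found in all 3 lists, covering 771 bases.

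**Figure D1:**
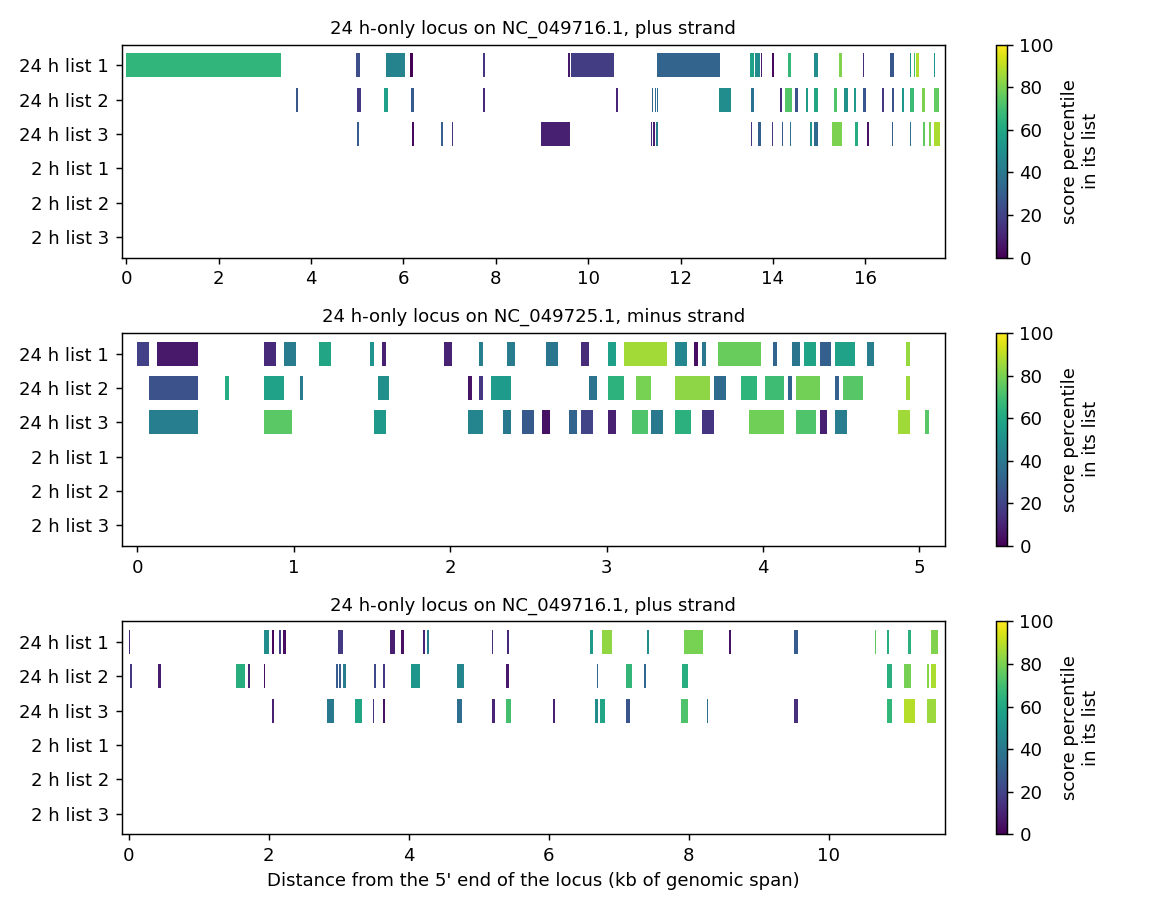
Peaks of the 3 richest 24 h-only loci, drawn along the genomic span from the 5' end in kb, with 1 row per list and colour for the score percentile of each peak in its list. The 24 h rows hold 21, 26 and 23 peaks in the upper locus, 25, 20 and 20 in the middle one and 22, 21 and 18 in the lower one, and the 2 h rows are empty by the rule.

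The next loci by number of peaks varied in extent and in how peaks were spread. On the minus strand of NC_049718.1, 9449555 to 9460441 held 21, 22 and 18 peaks, none longer than 150 bases, and its strongest peaks reached percentiles of 62.6 to 77.2. On the plus strand of NC_049712.1, 16052501 to 16061343 held 24, 20 and 17 peaks. On NC_049727.1 a plus-strand locus from 8591826 to 8614850 held 20, 17 and 17 peaks, and 21 of its 54 peaks lay in the last 10%. A 2 h peak of the same strand lay 5880 bases beyond its 3' end. A minus-strand locus of NC_049733.1 from 875344 to 890290 differed in where its peaks were strong. It held 19, 18 and 17 peaks, and its strongest peak lay between 12.0% and 12.9% of the span from the 5' end in all 3 lists. A minus-strand locus of NC_049730.1 from 11466938 to 11486137 had 17, 19 and 16 peaks with its strongest peak at 75.1% to 77.0% of the span in every list. A plus-strand locus of NC_049710.1 from 11838173 to 11848172 had 24, 17 and 15 peaks, of which 30 of 56 in all were exactly 75 bases long. The last of the 10, on the minus strand of NC_049731.1 from 7562611 to 7570038, had 17, 23 and 15 peaks, with its strongest peak at 91.4% to 92.8% of the span. Of these 10 loci, 5 had their strongest peak in the last 10% of the span in every list.

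Few peaks per locus were the rule. The 24 h-only loci held 3.18 ± 0.0557 peaks per locus and 24 h list (SD, n = 3), and 3896 ± 68.3 peaks per list in all, which is 6.80% ± 0.056 of a 24 h list. Shared loci held 5.32 peaks per locus in the same lists. Numbers of peaks per 24 h-only locus were correlated between the 24 h lists. Pearson's r of these numbers across the 1226 loci was 0.846 to 0.863 for the 3 pairs of lists, and 0.906 to 0.914 across the shared loci. These correlations run across loci of the same embryo collections, and loci are not independent replicates. The same number of peaks in all 3 lists was found in 266 loci (21.7%), and numbers at most 1 apart in 687 (56.0%).

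**Figure D2:**
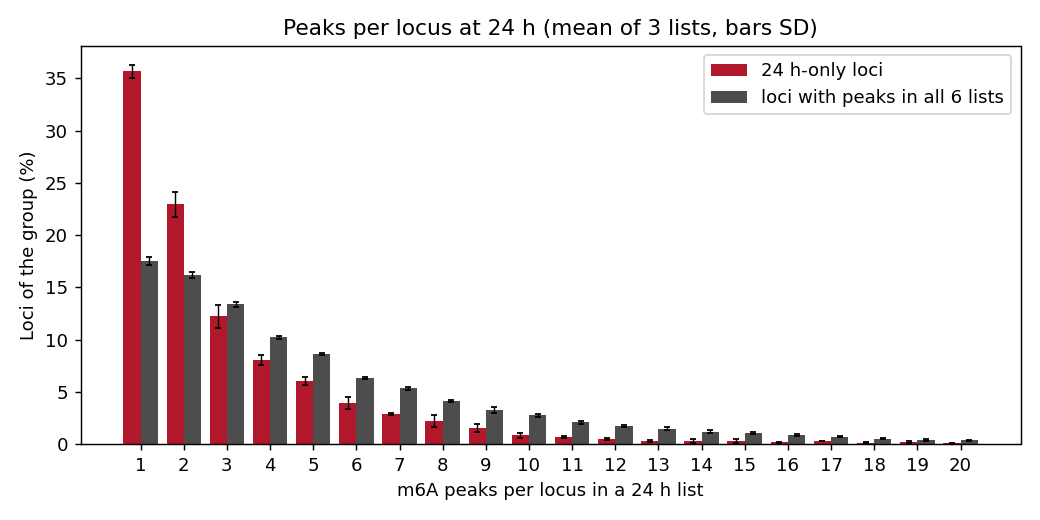
Share of loci (%) by the number of m6A peaks in a 24 h list, for the 24 h-only loci and for the loci with peaks in all 6 lists, up to 20 peaks; bars are the mean of the 3 lists of 24 h and error bars the SD. The 24 h-only loci are shifted to low numbers, with a mean of 3.18 peaks per locus against 5.32.

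By number of peaks the loci fell into classes. Exactly 1 peak in every 24 h list was present in 224 loci (18.3%), 2 to 4 in every list in 212 (17.3%) and 5 or more in every list in 163 (13.3%). The remaining 627 loci (51.1%) crossed a class limit between lists, and in 284 of these the numbers were only 1 apart. Among shared loci the same classes held 8.63%, 20.5%, 32.2% and 38.7%. The class with 5 or more peaks held 38.4% ± 0.411 of the peaks in 24 h-only loci and the single-peak class 5.75% ± 0.101 (SD, n = 3), which the class limits themselves bring about.

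Span grew with the number of peaks but was broad in each class. The median span was 362.5 bases for single-peak loci, 2490 bases for loci with 2 to 4 peaks and 5375 bases for loci with 5 or more, and 2412 bases over all 1226. A span over 10000 bases was reached by 185 loci and one over 50000 bases by 29. Among the 224 single-peak loci, 74 had a peak of at most 75 bases in every list, while 22 had a peak over 1000 bases in every list. In the 163 loci with 5 or more peaks none spanned less than 1000 bases.

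The longest 24 h-only loci were set by single very long peaks. On the plus strand of NC_049712.1 the locus from 7478786 to 7652874 spans 174089 bases, yet held 1, 1 and 2 peaks in the 3 lists. A minus-strand locus of NC_049732.1 from 6559402 to 6705047 held 2, 2 and 1 peaks, the longest of 144711 bases. A minus-strand locus of NC_049731.1 from 7572527 to 7705654 held 1, 2 and 3 peaks, the longest of 132428 bases, and its strongest peak stood at percentiles of 16.3 to 41.4. Such spans are genomic extents that can include introns, so a long locus is not a long marked transcript.

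Scores of the 24 h-only loci were low within their lists. The median peak stood at percentile 35.1 ± 0.623 of its 24 h list (SD, n = 3), against 54.8 ± 0.439 for peaks in shared loci. Of the peaks in 24 h-only loci 36.8% ± 1.07 were among the weakest 25% of the list and 3.62% ± 0.144 among the strongest 10% (SD, n = 3), against 20.96% and 11.4% in shared loci. The scores come from the lists that chose the loci, so these values get no test. The 3 lists of 24 h held 6 to 8 peaks with an infinite score in these loci.

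By its strongest peak, the class with 5 or more peaks stood highest. The highest of many peaks tends to exceed a single peak by construction, so this order follows in part from the number of peaks. The median percentile over all peaks of a class was 42.7 ± 0.614 with 5 or more peaks. It was 34.1 ± 1.64 with 2 to 4 and 35.1 ± 0.483 for single peaks (SD, n = 3 lists). The percentile of a locus's strongest peak was taken from whichever 24 h list gave the smallest. Its median was 74.3 for loci with 5 or more peaks, 39.9 for loci with 2 to 4 and 21.3 for single-peak loci. By the mean over lists, the median strongest peak stood at 35.1 ± 0.483 in single-peak 24 h-only loci against 80.4 ± 1.23 in single-peak shared loci, and at 79.2 ± 0.778 against 88.5 ± 0.0871 with 5 or more peaks (SD, n = 3 lists). In 84 of the 1226 loci (6.85%) the strongest peak was above percentile 90 in every 24 h list, against 2272 of 8654 shared loci (26.3%). In 439 loci (35.8%) no list had a peak at percentile 50 or higher. With only the stronger 50% of each list, 952 loci met the rule, and 426 of the 1226 loci (34.7%) overlapped one of them.

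**Figure D3:**
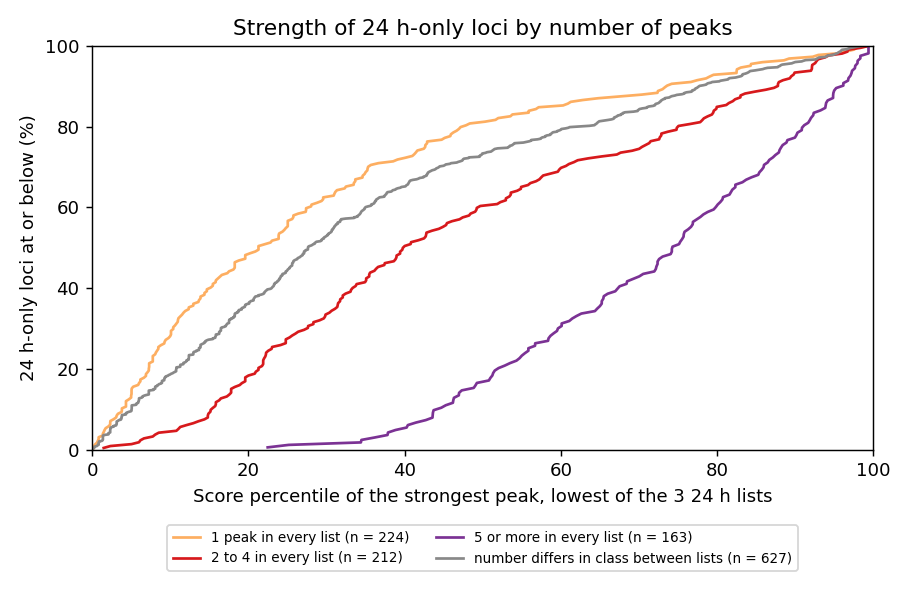
Cumulative share of 24 h-only loci (%) by the score percentile of the strongest peak in the 24 h list where it was lowest, 1 line per class of number of peaks. The line of the 163 loci with 5 or more peaks lies to the right, with a median of 74.3, against 39.9 for 2 to 4 peaks and 21.3 for a single peak.

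Some small loci were nonetheless among the strongest. In a single-peak locus on the plus strand of NC_049719.1 from 2817413 to 2817862, the peak of 425 to 450 bases had an infinite score in all 3 lists of 24 h, and the nearest 2 h peak of its strand was 200290 bases away. A locus of 925 bases on the plus strand of NC_049717.1 from 8374036 to 8374960 held 4, 2 and 2 peaks, and a peak of 175 bases in it had an infinite score in every 24 h list. The nearest 2 h peak of its strand was 342234 bases away. On NC_049731.1 the single peak of the plus-strand locus from 8299687 to 8300223 stood at percentiles of 97.9 to 98.0, but a 2 h peak of the same strand lay 3328 bases from its 3' end. On the same sequence a minus-strand peak from 2235630 to 2238097 had identical ends in all 3 lists, with percentiles of 97.6 to 98.1. The single peaks of NC_049722.1 from 11548225 to 11548524 (plus strand) and from 9438063 to 9438752 (minus strand) stood at 96.6 to 97.4 and 95.7 to 97.0.

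In the class of 2 to 4 peaks, the second by this rule lay on the minus strand of NC_049725.1 from 4511460 to 4512209. It held 2, 3 and 2 peaks with percentiles of 98.4 to 98.7, and both of its merged regions were found in every 24 h list. A plus-strand locus of NC_049730.1 from 7066705 to 7077786 held 4, 3 and 3 peaks, and its strongest peak spanned 9154 to 10457 bases. The others were plus-strand loci of NC_049720.1 from 9065934 to 9068336 with 2, 2 and 3 peaks and of NC_049730.1 from 1354699 to 1375214 with 2, 2 and 3 peaks. In the last of these a peak of 20416 bases was the strongest in the first list, while peaks of 125 and 275 bases were the strongest in the other lists.

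Within the loci, many peaks stood in a single list. Peaks of the 24 h lists in 24 h-only loci merged into 7020 regions, of which 1378 (19.6%) were found in 3 of 3 lists and 4307 (61.4%) in 1 list. In shared loci 28.4% of 73992 such regions were found in 3 of 3 lists and 51.1% in 1. A region found in all 3 lists was present in 801 of the 24 h-only loci (65.3%), and in 157 of the 163 with 5 or more peaks (96.3%). Of the 224 single-peak loci, 140 (62.5%) had their peaks overlap in all 3 lists and 10 had identical ends in all 3.

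Peaks of exactly 75 bases and very long peaks both took a larger share in 24 h-only than in shared loci in each of the 3 lists. The 75-base peaks made up 28.5% ± 1.38 of the 24 h peaks in 24 h-only loci and 20.5% ± 1.42 in shared loci (SD, n = 3), 7.94 ± 0.267 percentage points more, and the excess was 7.64 to 8.17 in the 3 lists. The shares did not overlap between the sets of loci. The exact two-sided sign-flip test over the 3 lists gave p = 0.25, the smallest value that 3 lists allow. These peaks come from the lists that chose the loci. Tests of peak length and position here and below are therefore not independent of that choice. Among peaks in the stronger 50% of their list the excess was 1.80 percentage points, with 18.2% against 16.4%. In the weaker 50% it was 7.94, with 33.6% against 25.7%, so most of the excess stood among weak peaks.

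Peaks that span over 1000 bases of genome made up 6.79% ± 0.406 in 24 h-only loci and 4.26% ± 0.232 in shared loci (SD, n = 3), a difference of 2.53 ± 0.230 percentage points that was positive in each list (exact two-sided sign-flip p = 0.25). Here the excess was larger among strong peaks, 4.53 percentage points in the stronger 50% of each list and 2.24 in the weaker 50%. Over 10000 bases the shares were 2.53% ± 0.188 and 0.780% ± 0.0525 (SD, n = 3, exact two-sided sign-flip p = 0.25). Peaks of any length seldom had the same ends in every list. In 24 h-only loci 3 of 735 different peaks over 1000 bases (0.408%) did, against 105 of 5168 in shared loci (2.03%). For peaks of 75 bases it was 12 of 3109 (0.386%) against 416 of 25301 (1.64%), and for 100 to 1000 bases 20 of 2747 (0.728%) against 725 of 34835 (2.08%). Peaks of 25 bases were less frequent in 24 h-only loci, 25.3% ± 1.40 against 29.7% ± 0.771, lower in each list (SD, n = 3, exact two-sided sign-flip p = 0.25).

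Along their span, peaks of 24 h-only loci gathered at the 3' end. In the 890 loci that span over 1000 bases, 28.6% ± 1.18 of the peaks of at most 1000 bases had their midpoint in the last 10% of the span and 14.9% ± 0.379 in the first 10% (SD, n = 3), while the parts from 30% to 70% held 6.44% per 10% on average. Their difference, last minus first, was 13.7 ± 0.945 percentage points and ran from 13.2 to 14.8 by list (p = 0.25 by exact two-sided sign flips, the smallest possible). The median score percentile was 39.3 ± 0.729 in the last 10% and 28.7 ± 2.97 in the first (SD, n = 3). Locus ends are set by the peaks themselves, which raises the shares at both ends, and most in loci with few peaks. The mRNA was selected with oligo(dT) beads, and whether coverage along transcripts bears on these shares was not tested.

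Over all loci above 1000 bases, the shares at both ends stood above those of shared loci in each list. In shared loci the last 10% held 24.8% ± 0.432 of the peaks of the same lists (SD, n = 3), so 24 h-only loci stood 3.84 ± 0.760 percentage points above (exact two-sided sign-flip p = 0.25). The first 10% held 12.8% ± 0.268 in shared loci, so 24 h-only loci stood 2.08 ± 0.604 points above there, from 1.42 to 2.60 by list (n = 3, exact two-sided sign-flip p = 0.25). Last minus first was 13.7 points in 24 h-only loci and 12.0 in shared loci. Among loci of like number of peaks the difference in the last 10% was 3.90 ± 0.862 points for 2 to 4 peaks and 2.64 ± 0.422 for 5 or more. It was again positive in each list (exact two-sided sign-flip p = 0.25 each). In the first 10% the difference was 1.80 ± 2.17 points for 2 to 4 peaks, from 0.184 to 4.27 by list. For 5 or more it was -0.508 ± 0.431, from -0.888 to -0.0402 (exact two-sided sign-flip p = 0.25 each). The excess in the first 10% was thus reversed in loci with 5 or more peaks. With only peaks of at most 1000 bases used to build loci, the difference in the last 10% was 0.437 ± 0.780 points (exact two-sided sign-flip p = 0.5), so it depended on the long peaks. Within 24 h-only loci the last 10% then exceeded the first by 7.68 points. In an unplanned setting, the ends of both sets came from 24 h peaks of any length. The difference between the sets in the last 10% was then 3.32 ± 0.749 points (exact two-sided sign-flip p = 0.25). The difference in the first 10% was not computed in that setting.

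**Figure D4:**
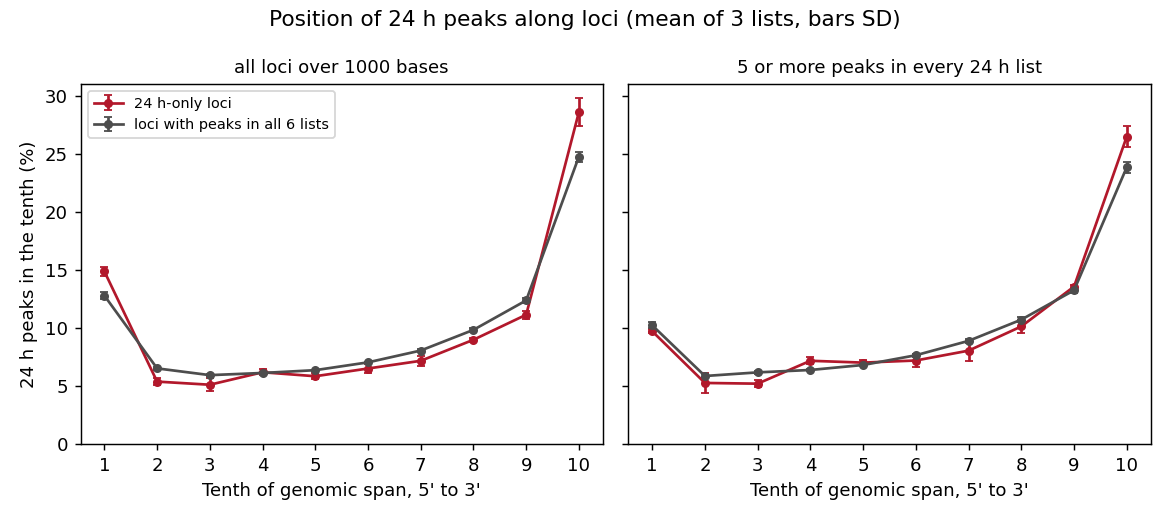
Share of 24 h peaks (%) in each 10% of the genomic span from 5' to 3', for 24 h-only loci and loci with peaks in all 6 lists, over all loci above 1000 bases (left) and those with 5 or more peaks in every 24 h list (right); points are means of the 3 lists of 24 h and bars the SD. Both sets end in a high last part, 28.6% in 24 h-only loci against 24.8% on the left and 26.5% against 23.9% on the right.

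The strongest peak of a locus often sat at its 3' end, where peaks of any strength were also frequent. Of all peaks of at most 1000 bases, the last 10% held 26.5% in 24 h-only loci with 5 or more peaks. With 2 to 4 peaks it held 33.7%. In the 163 loci with 5 or more peaks, 43.8% ± 1.87 had their strongest peak in the last 10% of the span and 7.77% ± 1.28 in the first (SD, n = 3). In shared loci of the same class these shares were 39.8% ± 1.64 and 11.1% ± 0.455. The difference, 24 h-only minus shared, was 3.91 ± 0.332 points for the last 10% and -3.34 ± 1.73 for the first, with 1 sign in all lists each (exact two-sided sign-flip p = 0.25 each). For loci with 2 to 4 peaks the last 10% held the strongest peak in 39.3% ± 2.03 of 24 h-only and 33.1% ± 0.658 of shared loci (SD, n = 3, exact two-sided sign-flip p = 0.25). The first 10% held it in 20.8% ± 1.16 and 19.9% ± 0.977, a difference of 0.893 ± 1.47 points whose sign was mixed over lists, from -0.271 to 2.55 (SD, n = 3, exact two-sided sign-flip p = 0.5).

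Peaks within a 24 h-only locus lay close together. The median gap between neighbouring peaks of a 24 h list was 218 ± 11.5 bases in 24 h-only loci and 267 ± 14.4 bases in shared loci (SD, n = 3). In shared loci, 2 h peaks can bridge wider gaps between 24 h peaks, which 24 h-only loci lack by the rule. These values are therefore not on equal terms, and the part of such bridging was not tested.

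Distances from 24 h-only loci to 2 h peaks were broad. A same-strand 2 h peak under 2000 bases away would have been joined to the locus, so the rule itself sets that floor. No such distance is given for other loci. The nearest 2 h peak of the same strand lay at a median distance of 32892 bases. It was within 50000 bases for 757 loci (61.7%) and beyond for 469. It lay within 10000 bases for 278 loci (22.7%), 163 of them with the 2 h peak on the 3' side and 115 on the 5' side, and within 3000 bases for 48. The 3 loci nearest to a 2 h peak were on NC_049726.1 from 5563090 to 5565939 (plus strand), on NC_049733.1 from 4259240 to 4260656 (minus strand) and on NC_049712.1 from 11395066 to 11397413 (plus strand), at 2033, 2034 and 2046 bases. All 3 had the 2 h peak on the 3' side, and they held 1, 3 and 2, 1, 2 and 2, and 2, 3 and 3 peaks in the 24 h lists. Whether such loci belong to a transcript with 2 h peaks was not tested. By class, 27.7% of single-peak loci, 23.1% of loci with 2 to 4 peaks and 18.4% of loci with 5 or more lay within 10000 bases of a 2 h peak of their strand.

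Opposite-strand peaks were rare in these loci. The protocol does not describe the library kit as marking strand, and the sources used here do not say how strand was assigned. A 2 h peak of the opposite strand lay within the span of 20 of the 1226 loci (1.63%), against 541 of 8654 shared loci (6.25%). With strand ignored, 1087 loci met the rule, and 1092 of the 1226 loci (89.1%) overlapped one of them.

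The starts of 24 h-only loci rarely faced the start of another locus. Within 2000 bases upstream of the 5' end, the 5' end of an opposite-strand locus was present for 30 of 1226 24 h-only loci (2.45%, exact 95% binomial interval 1.66% to 3.47%), against 2477 of 8654 shared loci (28.6%, 27.7% to 29.6%). In 25 of these 30 the facing locus was a shared one, and in 0 of 1226 was it another 24 h-only locus. A count of 0, read as under 3 counts of 1226, allows a share of up to 0.245%, and the exact 95% binomial upper limit is 0.300%. For loci with 5 or more peaks the shares were 2.45% (4 of 163) and 27.9% (778 of 2785). The intervals cover counting error only, and neighbouring loci are not independent.

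The 3' ends differed in the same direction, less widely. Within 2000 bases downstream of the 3' end, the 3' end of an opposite-strand locus was present for 109 of 1226 24 h-only loci (8.89%, exact 95% binomial interval 7.36% to 10.6%) and 2038 of 8654 shared loci (23.5%, 22.7% to 24.5%). With 5 or more peaks it was 15.95% (26 of 163) against 31.5% (877 of 2785). Surroundings of 24 h-only loci were sparser, with a median of 8 other locus midpoints within 100000 bases on either strand, against 11 for shared loci. Among loci with 16 or more such neighbours, facing 5' ends were present for 11 of 142 24 h-only loci (7.75%, exact 95% binomial interval 3.93% to 13.4%) and 837 of 2093 shared loci (40.0%, 37.9% to 42.1%). Among loci with 0 to 5 neighbours the shares were 0.741% (3 of 405) and 12.2% (137 of 1127). The part of sparser surroundings in the difference was not tested. The comparison of facing ends was chosen after the data were seen and has no test over samples, because it takes 1 value from all lists together.

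**Figure D5:**
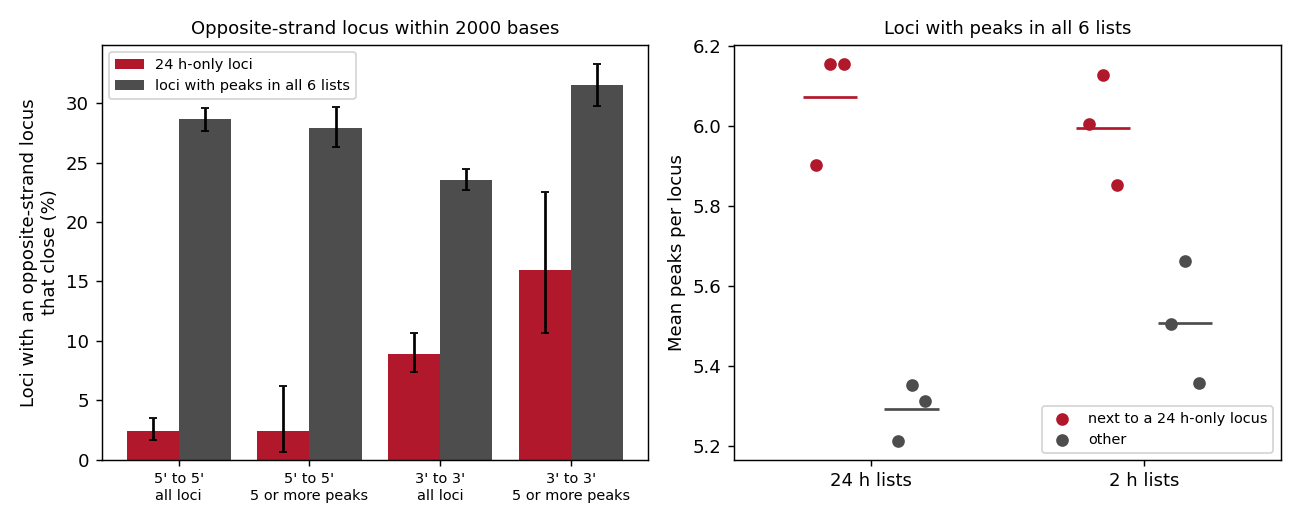
Left, share of loci (%) with the 5' end of an opposite-strand locus within 2000 bases upstream of their own 5' end, or its 3' end within 2000 bases downstream of their 3' end, for 24 h-only loci and loci with peaks in all 6 lists, bars with exact 95% binomial intervals. Right, mean peaks per list in loci with peaks in all 6 lists, for the 312 next to a 24 h-only locus and the 8342 others (1 point per list, line at the mean). Facing 5' ends were present for 2.45% of 24 h-only loci against 28.6%, and the axis on the right does not start at 0.

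Many 24 h-only loci came in runs along a strand. The next locus on the same strand was again 24 h-only for 298 of the 1221 24 h-only loci that had a next one (24.4%), against 7.35% over all chromosomal loci and 4.63% after shared loci. They formed 928 runs, of which 218 held at least 2 loci, and 516 loci (42.1%) were in such runs. The median gap inside runs was 10920 bases, and 140 of 298 gaps (47.0%) were under 10000 bases. With a joining distance of 10000 bases, where such loci become 1, the share of next loci that were 24 h-only was 21.8%, against 9.26% of all loci in that setting. Pieces of the same gene and neighbouring genes cannot be told apart here.

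The longest run held 7 loci on the plus strand of NC_049717.1 from 7020857 to 7098381. It held 16, 16 and 13 peaks in the 24 h lists, with 1 to 4 per locus, and its loci lay 3148 to 20354 bases apart. A run of 5 loci on the plus strand of NC_049718.1 from 9944520 to 10276984 held 13, 12 and 13 peaks, with gaps up to 140451 bases. A run of 4 on the minus strand of NC_049722.1 from 5563969 to 5817496 was richer, with 26, 29 and 27 peaks and up to 17 in a locus. No locus of the opposite strand lay within any of these 3 runs. They were thus stretches of 77525, 332465 and 253528 bases in which only 24 h peaks of a single strand were called.

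All 32 chromosomal sequences held 24 h-only loci, from 7 to 72 each, and 634 were on the plus and 592 on the minus strand. The sequence with the fewest loci had the highest share: on NC_049741.1, 7 of 34 loci were 24 h-only (20.6%, exact 95% binomial interval 8.70% to 37.9%) and 1 was shared.

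Shared loci next to a 24 h-only locus carried more peaks, and relative to other shared loci the excess was larger in each 24 h list than in each 2 h list. The rule for 24 h-only loci did not count the peaks of these loci. Shared loci were themselves chosen for a peak in all 6 lists, however. Their peaks also helped to set where 1 locus ends and the next begins, so the comparison is not independent of the choice of loci. A 24 h-only locus was adjacent on the same strand, within 20000 bases, for 312 shared loci. They held 5.90, 6.16 and 6.16 peaks per locus in the 24 h lists and 6.01, 6.13 and 5.85 in the 2 h lists, so the times overlapped, with a ratio of 1.01 (exact two-sided permutation p = 0.5). The 8342 other shared loci held 5.21, 5.35 and 5.31 peaks in the 24 h lists and 5.51, 5.66 and 5.36 in the 2 h lists, a ratio of 0.961 (exact two-sided permutation p = 0.1, the smallest that 3 lists against 3 can give). In these the 24 h lists were all below the 2 h lists, though the highest 24 h list and the lowest 2 h list nearly met.

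Set against the other shared loci of the same list, the neighbours stood at 1.15 ± 0.0135 times at 24 h and 1.09 ± 0.00561 times at 2 h (SD, n = 3). All 3 lists of 24 h were above all 3 lists of 2 h, and the ratio between the times was 1.05 (exact two-sided permutation p = 0.1, the smallest possible). Every 24 h list had more peaks than every 2 h list in 36 of the 312 neighbours (11.5%), against 4.93% of all 8654 shared loci. Fewer peaks in every 24 h list were found in 23 (7.37%), against 7.77%. The share with more peaks was above that of all shared loci, and the share with fewer was near it. A neighbour can be a piece of the same gene as the 24 h-only locus, and the part of such splitting in the difference was not tested.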

How the data were processed

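m6A capture was followed by sequencing in 3 samples each of 24 h and 2 h embryos. The submitters' processing notes name HOMER, HISAT2 2.1.0, fastp 0.20.0 and Bowtie2 2.2.5. Which tool called the peaks, at what threshold, and on what build is not stated in the sources used here. The authors deposited 1 peak list per sample, unpooled, with a score per peak whose scale is not stated. It was used only as a rank within its list (percentile, ties averaged). Depth is unknown.

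Peaks of 1 strand under 2000 bases apart were joined into loci across the 6 lists. Loci on the mitochondrial sequence and on scaffolds were left out. Peaks overlapping by at least 1 base were merged into regions. Positions used midpoints of peaks of at most 1000 bases. Per-list shares were tested by exact sign flips over 3 lists, and means by exact permutation of 3 lists against 3, all two-sided. Loci were named by fixed rules: most peaks (10), highest score percentile in a class (5 each), longest runs, spans and nearest 2 h peaks (3 each). Members and rules were chosen with earlier results of these data known. The code was tested on simulated lists. Alternatives are given at the end. Same-numbered samples of both times did not deviate together (correlations of -0.000547 to 0.0265). Computation used matplotlib 3.10.9, scipy 1.17.1, pandas 2.3.3 and numpy 2.4.6 under Python 3.11.15.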

Additional observations from a re-analysis of the deposited data

Results flagged for a closer look

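Unplaced scaffolds, which were outside the comparisons, held 26 loci with a peak in all 3 lists of 24 h and none at 2 h, among 451 loci (5.76%), and 0 loci with the opposite pattern. The 26 loci lay on 18 scaffolds, held 3.13 peaks per 24 h list on average, and in 3 of them no 24 h list held fewer than 5.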

How the results depend on the processing

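The number of 24 h-only loci, 1226, was 799 with a joining distance of 10000 bases and 2072 with a peak in at least 2 of 3 lists of 24 h; without 1 list it was 1310 to 1675. Peaks per 24 h-only locus (3.18) were 2.39 and 3.88 with joining distances of 500 and 10000 bases, 2.30 in the stronger 50% of each list, 2.97 at equal list length, 3.06 with peaks of at most 1000 bases, 2.84 without 75-base peaks, 3.11 with strand ignored, 2.24 with 2 of 3 lists, and 2.68 to 3.17 without 1 list. The median score percentile (35.1) was in these settings 38.1 and 34.0, 70.7, 43.5, 41.7 without 75-base peaks, 31.1 with 2 of 3 lists, and 32.7 to 35.3 without 1 list. Percentiles were those of the full lists. Removing weak peaks therefore raised 70.7 (stronger 50%) and 43.5 (equal list length) by construction. The share of next loci that were 24 h-only (24.4%) was 21.8% with 10000 bases, 21.1% in the stronger 50%, 19.4% with peaks of at most 1000 bases, 21.2% without 75-base peaks, 31.2% with 2 of 3 lists, and 23.8% to 28.8% without 1 list. Opposite-strand 2 h peaks (1.63%) fell to 0.735% in the stronger 50% and 0.840% with peaks of at most 1000 bases, and were 1.17% to 1.57% without 1 list. Facing 5' ends (2.45%) were 1.38% with 10000 bases, against 18.0% in shared loci, 4.41% in the stronger 50%, against 23.8%, and 1.85% to 3.04% without 1 list.

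The ratio of peaks in neighbouring shared loci, 1.01, turned to 0.955 at equal list length and 0.972 without 75-base peaks, and the cause was not tested. That ratio over the one of other shared loci stayed above 1 in every setting run (1.05 to 1.17). The excess of 75-base peaks, 7.94 points, was 1.69 in the stronger 50%; the difference between the sets of loci in the last 10%, 3.84 points, was 0.437 with peaks of at most 1000 bases and 8.53 with 10000 bases. The excess of the last over the first 10% in 24 h-only loci, 13.7 points, was 7.63 and 20.9 with 500 and 10000 bases. The settings for facing 5' ends were chosen after seeing the data. With a replicate block, the neighbour ratio was 1.01 (exact sign-flip p = 0.75) and the ratio over other loci 1.05 (exact sign-flip p = 0.25); the samples share only a number. No test over 3 lists can pass 0.05. Position and opposite strand were not run with strand ignored. With 1 list left out, presence is easier to meet, so those counts are not comparable on equal terms.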
